A study of Saccharomyces cerevisiae with 24 samples.

Results

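The translation factors of budding yeast, the proteins that start, extend and end the synthesis of every protein on the ribosome, were followed by ribosome profiling and mRNA sequencing in cells with and without the chaperone gene ZUO1. The set was given as 40 gene identifiers covering the initiation factors eIF1 to eIF5B, the exchange factor eIF2B, the elongation factors, the release factors, PAB1, CAF20 and DED1. The rule that names them uses no measured value, but the set was put together with earlier results of these data known. Of the 40 genes, 39 had values that could be used, out of 5211 genes in the count table; HYP2 was not analysed here. The cells were Saccharomyces cerevisiae of the laboratory strain BY4741, carrying either a deletion of ZUO1 (zuo1Δ) or an intact ZUO1 (wild type). Each genotype was grown in synthetic complete medium at 30 °C to an OD600 of 0.6 and was then treated with 0.25 mM hydrogen peroxide (H2O2) for 30 min, shifted to 37 °C for 45 min by adding warm medium, or harvested unstressed. Each of the 6 combinations gave 2 mRNA libraries and 2 libraries of ribosome footprints, the short pieces of mRNA that a ribosome shields from nuclease, which makes 24 libraries. The lysis buffer held cycloheximide, which stops ribosomes in place, and the mRNA libraries were made from poly(A)-selected RNA.

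Translation starts when eIF2, bound to GTP and the initiator tRNA, joins the small ribosomal subunit together with eIF1, eIF1A, eIF3 and eIF5, while the cap-binding eIF4 factors, with the poly(A)-binding protein, bring in the mRNA and unwind it. After the start codon is found and eIF5B has joined the large subunit, eEF1A delivers aminoacyl-tRNAs, eEF2 moves the ribosome by one codon and the fungal factor eEF3 helps to release the spent tRNA, until eRF1 and eRF3 end the chain at a stop codon. In yeast the mRNAs of some of these factors are among the most abundant, and their output is adjusted with growth together with that of the ribosomal proteins. Zuo1 sits at the ribosome beside the exit tunnel and, with Ssz1, activates the Hsp70 chaperone Ssb on growing chains.

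Total counts ran from 1686930 to 15788345 per footprint library and from 7810893 to 122213415 per mRNA library, and every one of the 39 factors was above 0 in each of the 24 libraries. ZUO1 itself was at 0 in all 12 zuo1Δ libraries and between 1987 and 32580 counts in the 12 wild-type libraries. Levels are given as CPM, counts normalised to the library size and to a TMM factor that equalises the bulk of genes between libraries. These factors ran from 0.39 to 1.95 in mRNA. The SD of the log2 ratio between replicates over the 39 factors was 0.21 to 0.35 in the footprint groups and 0.42 to 0.81 in the mRNA groups, so mRNA differences had to be larger to be called. A difference is called here when its p-value from edgeR's quasi-likelihood test, adjusted by Benjamini-Hochberg over all genes tested, is under 0.05. The submitters describe 2 biological replicates, and p-values measure the spread between those. CPM values are levels relative to the other genes of a library, so fewer transcripts per cell and a larger pool of other transcripts cannot be told apart.

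Of these libraries, 3 went against their treatment labels or their replicate on a list of 14 oxidative stress genes. Their median log2 level was taken relative to the mean of all unstressed libraries of the same assay, both genotypes together. It therefore also holds any genotype difference. The median was -0.15 in replicate 1 and 2.01 in replicate 2 of the zuo1Δ H2O2 footprints. In the wild-type H2O2 footprints it was 2.25 and 2.09. In mRNA it was 1.36 in replicate 1 and -0.01 in replicate 2 of the zuo1Δ H2O2 libraries, and 1.30 in replicate 1 and -0.36 in replicate 2 of the zuo1Δ heat libraries, against 2.15 and 1.70 in the wild-type H2O2 libraries. Results that rest on replicate 1 of the zuo1Δ H2O2 footprints, replicate 2 of the zuo1Δ H2O2 mRNA and replicate 1 of the zuo1Δ heat mRNA are therefore given with and without these 3 libraries. Leaving them out leaves 1 library in each of their groups, which is then assumed to vary like the other groups. On the same baseline, the median of 16 heat shock genes was -0.10 and -0.90 in the zuo1Δ heat footprints. It was 0.22 and -0.47 in the unstressed zuo1Δ footprints. In the wild-type heat footprints it was 1.03 and 0.68, with a highest value of 0.43 in any unstressed footprint library.

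In unstressed wild-type cells the factors spanned a wide range of footprint density, the CPM per kilobase of gene. YEF3, the eEF3 gene (YLR249W, chromosome XII, 636780 to 639914 of the R64 assembly), stood highest of the 39 at 5417 ± 12.9 CPM per kb (SD, n = 2, as for the other densities) and ranked 23 among 5060 genes. EFB1 and TEF4, which encode the exchange-factor subunits eEF1Bα and eEF1Bγ, followed at 3604 ± 129.7 and 2308 ± 277 CPM per kb. Their gene lengths include an intron, so these densities are understated. Coding length was not used, so YEF3 standing above EFB1 holds per gene length only and may not hold per coding length. The poly(A)-binding protein gene PAB1 had 1315 ± 105, the cap-binding eIF4E gene CDC33 had 881 ± 26.6 and the RNA helicase gene DED1 had 768 ± 32.0 CPM per kb. The median gene had 38.6 CPM per kb. TEF1 and TEF2, EFT1 and EFT2, and TIF1 and TIF2 are near-identical copies, and how reads that match both were counted is not given. Their places in this order are therefore uncertain. HEF3, a second eEF3 gene that yeast hardly uses in rich growth, was lowest at 0.543 ± 0.131 CPM per kb, and eIF4G2 (TIF4632) had 66.0 ± 7.21 against 321 ± 34.9 CPM per kb for eIF4G1 (TIF4631).

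Within eIF2, eIF2B, eIF3 and the release factors, subunits had like footprint densities. The eIF4E and eIF4G genes, whose densities above lay further apart, were not part of this comparison. In unstressed wild-type cells the 3 subunits of eIF2 ran from 409 (SUI3, eIF2β) to 543 CPM per kb (GCD11, eIF2γ), and the 6 eIF3 genes from 307 (RPG1, eIF3a) to 487 CPM per kb (TIF34, eIF3i). The 5 subunits of eIF2B, which recharges eIF2 with GTP, lay below both sets, from 81.8 (GCD2, eIF2Bδ) to 129.7 CPM per kb (GCD1, eIF2Bγ). The highest over the lowest subunit stayed between 1.14 and 1.64 for eIF2, 1.37 and 1.81 for eIF2B, 1.47 and 2.23 for the 5 core subunits of eIF3, and 1.00 and 1.40 for the release factors SUP45 (eRF1) and SUP35 (eRF3) over the 12 footprint libraries. The same ratio in mRNA CPM per kb ran from 1.63 to 5.09, 3.37 to 14.8, 2.76 to 7.49 and 2.34 to 10.3. In no complex did the ranges of the 2 assays overlap, apart from eIF2, where the lowest mRNA ratio of 1.633 lay just under the highest footprint ratio of 1.637. Replicates also spread more in mRNA than in footprints, as given above, and the part of this in the wider mRNA ratios was not tested.

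**Figure D1:**
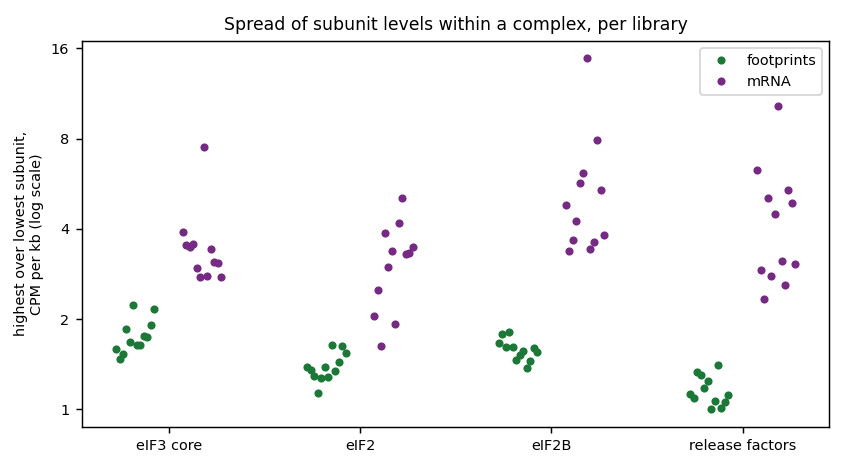
Highest over lowest subunit in CPM per kilobase (log axis) within the eIF3 core, eIF2, eIF2B and the release factors, 1 point per library, footprints in green and mRNA in purple. Footprint points stay at or under 2.23 in all 4 complexes, while mRNA points reach 14.8 in eIF2B.

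Footprint CPM relative to mRNA CPM placed the factors at both ends of the transcriptome in unstressed wild-type cells. The log2 ratio was 3.84 for TIF4632, 3.19 for SUP35, 2.98 for TIF35 (eIF3g), 2.92 for HCR1 (eIF3j) and 2.67 for TIF4631, all at or above the 93.2 percentile of 5070 genes. The lowest were TEF2 at -4.46 and EFT2 at -4.40, with EFT1 at -4.01, TEF1 at -3.95, TIF1 at -3.86, TIF2 at -3.67 and HEF3 at -2.91, all at or below the 2.4 percentile. The first 6 of these are the near-identical gene pairs for eEF1A (TEF1 and TEF2), eEF2 (EFT1 and EFT2) and eIF4A (TIF1 and TIF2), whose reads cannot be assigned to one copy with certainty. How reads that match both copies were counted is not given in the sources used here, and its part in these ratios was not tested. The median over the 39 factors was 0.52, against 0.06 over all genes.

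The share of footprint counts that fell on the 39 factors was lower in both stresses in wild-type cells. It was 2.28% and 2.37% with H2O2 and 2.44% and 2.44% with heat, against 3.66% and 3.76% in unstressed wild-type cells. In zuo1Δ cells it was 3.69% and 2.96% with H2O2 and 2.84% and 3.16% with heat, against 3.63% and 3.80% in unstressed zuo1Δ cells. Neither stressed group of wild-type libraries overlapped its unstressed group, while replicate 1 of the zuo1Δ H2O2 libraries lay within the unstressed zuo1Δ values. The 10 elongation factors alone took 1.19% and 1.23% with H2O2 and 1.26% and 1.25% with heat in wild-type cells, against 2.34% and 2.31% unstressed. They took 2.16% and 1.47% with H2O2 and 1.54% and 1.68% with heat in zuo1Δ cells, against 2.29% and 2.34% unstressed. These shares lean on YEF3, which alone held 24110 of the 61604 factor counts in unstressed wild-type replicate 1. In wild-type H2O2 replicate 1 it held 18282 of 63630.

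**Figure D2:**
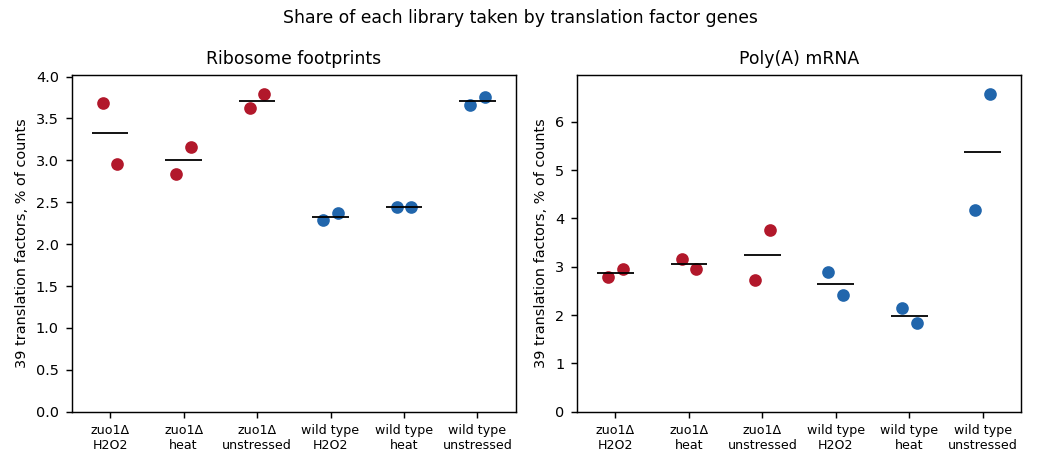
Percent of counts on the 39 translation factors in each footprint library (first panel) and mRNA library (second panel), zuo1Δ in red and wild type in blue, points for libraries and a line for the mean of 2. In footprints the 4 stressed wild-type libraries lie between 2.28% and 2.44%, under both unstressed wild-type libraries.

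In wild-type cells H2O2 lowered footprints on 24 of the 39 factors and raised them on 1. Over all 5064 genes tested, 18.1% were called (9.36% higher and 8.79% lower), and the median log2 change was -0.55 over the factors and 0.05 over all genes. The H2O2 values lay wholly below the unstressed values for 30 factors and wholly above for 2, against 27.4% and 35.2% of all genes. Heat lowered footprints on 17 of the 39 and raised none; over all genes 9.81% were called (3.53% higher and 6.28% lower), and the medians were -0.48 and 0.07. The heat values lay wholly below the unstressed values for 32 factors and wholly above for 1, against 24.9% and 31.8% of all genes. Both comparisons use the same unstressed libraries.

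Elongation factors had the lowest median of the 7 roles in both stresses. With H2O2, 7 of 10 fell and 1 rose, at a median log2 change of -1.03, and with heat 6 of 10 fell, at a median of -1.01. YEF3 had 6605 and 6914 footprint CPM with H2O2 and 7474 and 6948 with heat, against 17010 and 16953 in unstressed wild-type cells. The stressed libraries did not overlap the unstressed ones, and the log2 change was -1.33 ± 0.17 with H2O2 (SE; edgeR adjusted p = 0.00177) and -1.24 ± 0.17 with heat (adjusted p = 0.00117). The eEF1B subunit genes EFB1 and TEF4, whose products are part of the complex that reloads eEF1A with GTP, moved in the same direction. EFB1 (eEF1Bα) had 1749.8 and 1829.9 CPM with H2O2 and 1741 and 1302 with heat, against 3467 and 3648 unstressed. TEF4 (eEF1Bγ) had 1676 and 1755 CPM with H2O2 and 1585 and 1505 with heat, against 3918 and 3305 unstressed. Neither gene overlapped between stressed and unstressed libraries. Their log2 changes were -0.99 ± 0.18 and -1.07 ± 0.17 with H2O2 (adjusted p = 0.00433 and 0.00293) and -1.23 ± 0.18 and -1.22 ± 0.17 with heat (adjusted p = 0.00148 and 0.00126). CAM1, the other eEF1Bγ gene, did not pass in either stress: it had 602 and 575 CPM with H2O2 and 618 and 605 with heat, against 674 and 693 unstressed. The CAM1 log2 changes were -0.22 ± 0.12 with H2O2 and -0.16 with heat (adjusted p = 0.224 and 0.421), and TEF4 made up between 71.3% and 85.3% of the TEF4 and CAM1 footprints over the 12 libraries.

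The copies for eEF2, the translocase that moves the ribosome along, carried the steepest fall with heat. EFT2 (YDR385W, chromosome IV, 1243230 to 1245758) had 248 and 214 CPM with H2O2 and 169 and 123 with heat, against 622 and 398 unstressed. EFT1 (YOR133W, chromosome XV, 575098 to 577626) had 188 and 153 CPM with H2O2 and 97.7 and 73.0 with heat, against 399 and 291 unstressed. For each copy every stressed library was below both unstressed ones. Summed, since their reads cannot be told apart, EFT1 and EFT2 changed by -1.09 ± 0.29 log2 with H2O2 (adjusted p = 0.0217) and by -1.89 ± 0.30 with heat (adjusted p = 0.00221). TEF1 had 423 and 566 CPM with H2O2 and 594 and 587 with heat, against 921 and 1126 unstressed. TEF2 had 477 and 785 CPM with H2O2 and 597 and 929 with heat, against 757 and 889 unstressed. TEF1 was lower in every stressed library, while TEF2 overlapped in both stresses. Together this eEF1A pair, which brings aminoacyl-tRNAs to the ribosome, summed to 900 and 1351 CPM with H2O2 and 1191 and 1515 CPM with heat, against 1678 and 2015 CPM unstressed. The sum changed by -0.71 ± 0.21 log2 with H2O2 (adjusted p = 0.0346) and by -0.45 ± 0.21 with heat (adjusted p = 0.200), so that the heat change did not pass. TEF1 taken alone was called in both stresses, at -1.05 ± 0.21 with H2O2 and -0.79 ± 0.21 with heat (adjusted p = 0.00714 and 0.0355), and TEF2 in neither.

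HEF3 and ANB1, both read by few ribosomes, went different ways with H2O2. HEF3 had 6.86 and 6.97 CPM with H2O2 and 6.45 and 6.47 with heat, against 1.41 and 1.99 unstressed, and was the one factor that rose with H2O2, by 2.01 ± 0.61 log2 (adjusted p = 0.0399). Its heat change of 1.91 ± 0.63 did not pass (adjusted p = 0.0780). These levels rest on 19 and 88 counts with H2O2 and 14 and 42 with heat, against 2 and 3 counts unstressed. YEF3 still took at least 99.9% of the YEF3 and HEF3 footprints in every library. ANB1, the eIF5A gene that yeast uses mainly without oxygen (YJR047C, chromosome X, 524908 to 525381), had 9.03 and 6.97 CPM with H2O2 and 19.4 and 11.9 with heat, against 25.4 and 23.9 unstressed. ANB1 fell with H2O2, with a log2 change of -1.66 ± 0.50 (adjusted p = 0.0366) and was at -0.71 ± 0.48 with heat (adjusted p = 0.385). It has a near copy, HYP2, so its reads are also uncertain.

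Among the factors that act on the mRNA cap and unwind the 5′ end, 6 of 9 fell with H2O2 and 5 of 9 with heat, at median log2 changes of -0.55 and -0.50. CAF20, which binds eIF4E and keeps eIF4G from it, had 184 and 197 CPM with H2O2 and 193 and 187 with heat, against 336 and 358 unstressed, and changed by -0.86 ± 0.14 and -0.87 ± 0.14 log2 (adjusted p = 0.00341 and 0.00335). PAB1 had 1337 and 1452 CPM with H2O2 and 1457 and 1391 with heat, against 2150.4 and 2408 unstressed. TIF3, the helicase partner eIF4B, had 414 and 422 CPM with H2O2 and 489.7 and 483 with heat, against 669.5 and 722 unstressed. All 3 genes were lower in each stressed library than in both unstressed ones, and PAB1 and TIF3 changed by -0.71 and -0.74 log2 with H2O2 and by -0.68 and -0.52 with heat. CDC33 (eIF4E) had 377 and 390.1 CPM with H2O2 and 395 and 372 with heat, against 578 and 554 unstressed, and fell by 0.56 on the log2 scale in both stresses. DED1 was at -0.46 and -0.50 and was called in both, and the scaffold gene TIF4631 was called with H2O2, at -0.55, but not with heat, at -0.32. TIF4631 had 614 and 635 CPM with H2O2 and 733 and 733 with heat, against 847 and 988 unstressed. TIF4632, its second copy, had 191 and 197 CPM with H2O2 and 182 and 191 with heat, against 167 and 195 unstressed, and did not pass. TIF1, an eIF4A gene, had 52.8 and 113 CPM with H2O2 and 69.6 and 94.4 with heat, against 116 and 102 unstressed. TIF2 had 41.2 and 93.4 CPM with H2O2 and 56.2 and 84.3 with heat, against 74.1 and 89.6 unstressed. The heat libraries of TIF1 were below both unstressed ones, while TIF1 with H2O2 and TIF2 in both stresses overlapped them, and the summed pair did not pass, at -0.33 ± 0.29 log2 with H2O2 and -0.32 ± 0.29 with heat.

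Of the factors that pick the start codon and join the subunits, 3 of 4 fell with H2O2 and 1 of 4 with heat; the stresses were not tested against each other. TIF11, the eIF1A gene (YMR260C, chromosome XIII, 789378 to 789839), had 169 and 129 CPM with H2O2 and 287 and 230.3 with heat, against 267 and 307 unstressed. Both H2O2 libraries were below both unstressed ones, whereas replicate 1 of heat lay between them, and the log2 change was -0.95 ± 0.19 with H2O2 (adjusted p = 0.00738) and -0.15 ± 0.19 with heat (adjusted p = 0.663). SUI1, the eIF1 gene, fell by 0.72 on the log2 scale with H2O2, and FUN12, the eIF5B gene, fell by 0.53 with H2O2 and by 0.46 with heat. TIF5, the GTPase activator eIF5, did not pass in either stress (-0.08 and -0.26).

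Subunits of eIF3, the scaffold of the small-subunit complex, fell for 3 of 6 in each stress, namely RPG1 (eIF3a), PRT1 (eIF3b) and TIF34 (eIF3i), at -0.48, -0.65 and -0.50 log2 with H2O2 and -0.58, -0.63 and -0.53 with heat. Of eIF2, the tRNA carrier, GCD11 was called in both stresses, at -0.77 and -0.68. SUI2 (eIF2α), the subunit whose phosphorylation slows initiation, was not, at -0.27 and -0.41. Of the 5 eIF2B subunits, GCN3 (eIF2Bα) and GCD6 (eIF2Bε) fell with H2O2, at -0.58 and -0.56, and none was called with heat. The subunits GCD1, GCD2 and GCD7 (eIF2Bβ) were at -0.18, -0.24 and -0.24 with H2O2, and NIP1 (eIF3c), TIF35 and HCR1 of eIF3 at -0.43, -0.45 and 0.10, without passing. The release factors SUP45 and SUP35 both fell with H2O2, at -0.75 and -0.56, and SUP45 also with heat, at -0.75, with CPM of 339 and 364 with H2O2 and 377 and 328 with heat, against 593 and 589 unstressed.

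**Figure D3:**
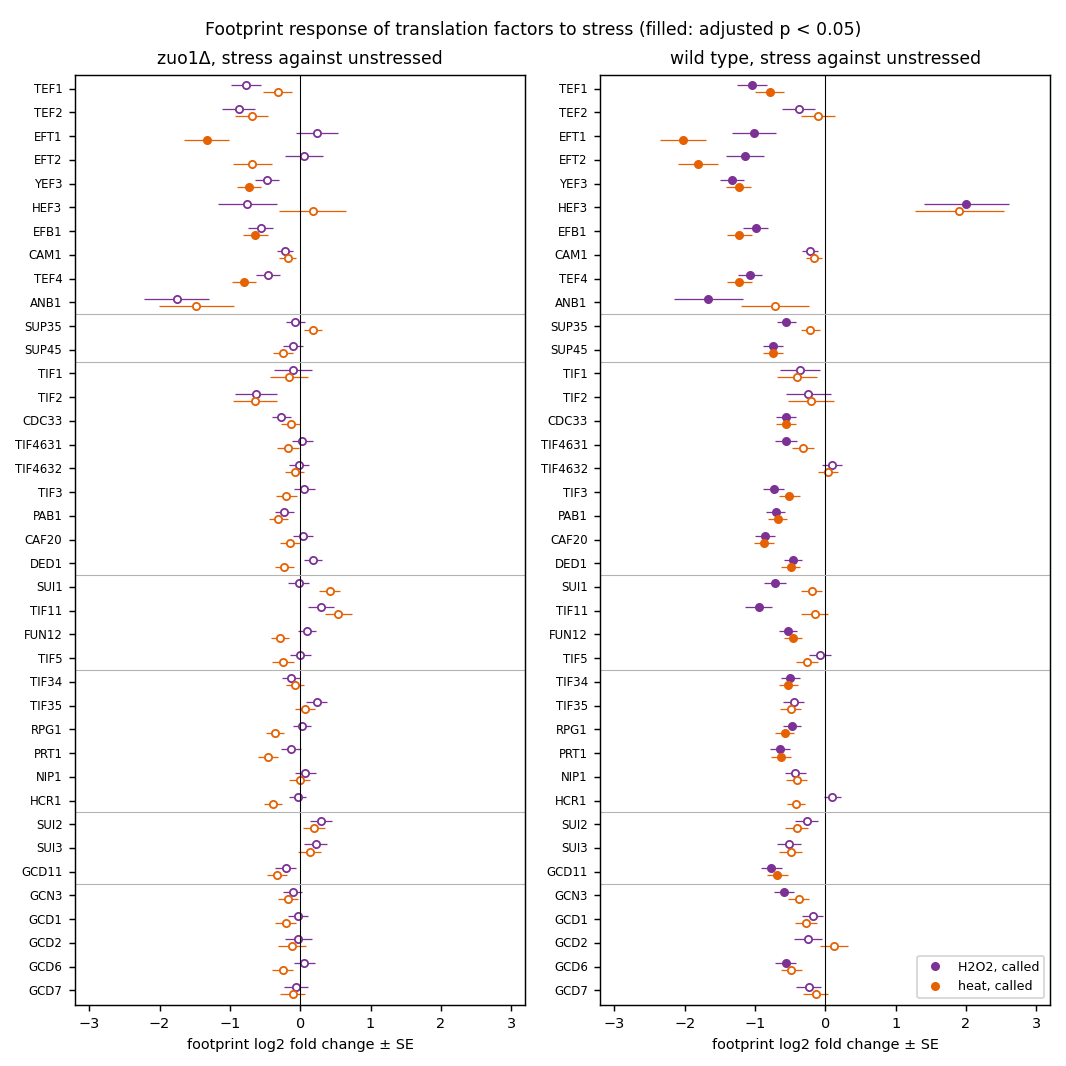
Log2 footprint change with stress for each factor, grouped by role, in zuo1Δ cells (first panel) and wild-type cells (second panel), H2O2 in purple and heat in orange; bars are SE and filled points have an adjusted p under 0.05. In wild-type cells 25 points are filled for H2O2 and 17 for heat, against 0 and 4 in zuo1Δ cells.

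Counts of called factors depended on single libraries. For H2O2 in wild-type cells 25 became 5 without H2O2 replicate 1, 10 without H2O2 replicate 2 and 9 without unstressed replicate 2, and for heat 17 became 9 without heat replicate 1, 5 without heat replicate 2, 10 without unstressed replicate 1 and 7 without unstressed replicate 2, each time with the lone sample assumed to vary like the other groups. EFB1, TEF4, YEF3 and CAF20 were called in both stresses under all 12 settings tried. Scaling by library size alone, which moved the median of all genes by 0.21 and 0.26 on the log2 scale, left 1 higher and 13 lower with H2O2 and 1 higher, HEF3, and 8 lower with heat.

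In zuo1Δ cells no factor passed with H2O2: edgeR called 0 of 39 and 0% of all genes, 6 factors passed 0.05 before adjustment, and DESeq2 called 3, namely TEF1, TEF2 and EFB1, all lower. The median log2 change was -0.04 over the factors and 0.01 over all genes. YEF3 had 12805 and 8175 CPM with H2O2 in zuo1Δ cells, against 14315 and 14680 unstressed, and TEF1 had 732 and 461, against 947 and 1091. ANB1 had 5.59 and 1.16 CPM with H2O2, against 11.9 and 14.3 unstressed. In each of these genes both H2O2 libraries were below both unstressed ones, with replicate 2 the lower. Replicate 1 is the library whose oxidative stress genes stood at -0.15. Without it the zuo1Δ H2O2 footprints rest on 1 library, so only effect sizes are given. With the doubted libraries left out, YEF3 was at -0.79, TEF1 at -1.11, EFB1 at -0.79 and TEF4 at -0.75 log2. ANB1 was at -3.43, which rests on 6 counts in the H2O2 library left.

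With heat, 4 factors fell in zuo1Δ cells, all of them elongation factors, and none rose; 11.9% of all genes were called (5.61% higher and 6.26% lower). The median log2 change was -0.21 over the 39 and 0.01 over all genes. EFT1 had 76.0 and 136 CPM with heat, against 283 and 244 unstressed, a log2 change of -1.33 ± 0.32 (adjusted p = 0.0206). Summed with EFT2 it changed by -0.96 ± 0.29 (adjusted p = 0.0505), which missed the threshold. YEF3 had 8265 and 9270.2 CPM with heat, against 14315 and 14680 unstressed, and TEF4 had 1612 and 1548, against 2797 and 2694. EFB1 had 1884 and 1612 CPM with heat, against 2786 and 2648 unstressed. YEF3, TEF4 and EFB1 did not overlap between heat and unstressed, and changed by -0.73 ± 0.17, -0.80 ± 0.17 and -0.64 ± 0.18 log2 (adjusted p = 0.0206, 0.0147 and 0.0377). The count of 4 became 0 without unstressed replicate 1 or heat replicate 1 and 2 without unstressed replicate 2 or heat replicate 2, while it was 8 with DESeq2 and 8 without the doubted libraries, 7 of these lower and TIF11 higher at 0.54 ± 0.17.

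Whether the stress response itself differed between the genotypes was tested by interaction. For H2O2 it was called for 1 factor, TIF11, against 1.36% of all genes (0.889% higher and 0.474% lower), and 24 factors passed 0.05 before adjustment. TIF11 had 306 and 225 CPM in zuo1Δ cells with H2O2, against 213 and 221 in unstressed zuo1Δ cells, so that its change of 0.29 log2 there stood against -0.95 in wild-type cells. The difference between those changes was 1.24 ± 0.27 (adjusted p = 0.0499). Without the doubted libraries it was 1.07 ± 0.26 (adjusted p = 0.0862) and no factor passed. By edgeR 0 were called without either wild-type H2O2 replicate, wild-type unstressed replicate 2, zuo1Δ unstressed replicate 1 or zuo1Δ H2O2 replicate 1, but 2 without zuo1Δ unstressed replicate 2 and 12 without zuo1Δ H2O2 replicate 2, and DESeq2 called 10. CAF20 at 0.90 ± 0.20, TIF3 at 0.80 ± 0.21, YEF3 at 0.86 ± 0.24 and HEF3 at -2.76 ± 0.75 came next (adjusted p = 0.0512, 0.0748, 0.0870 and 0.0797). The median of the 39 was 0.50, against -0.04 over all genes, with 32 of 39 above 0. For heat edgeR called 0 of 39 and 1.03% of all genes (0.612% higher and 0.415% lower), 11 factors passed 0.05 before adjustment, and DESeq2 called 2, EFT2 and CAF20; the medians were 0.32 and -0.04. Other edgeR fits called more: for H2O2, 2 factors with RLE size factors and 4 with the replicate number as a block, and for heat 1 without the doubted libraries, YEF3, at 0.54 ± 0.12 (adjusted p = 0.0382).

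Set against wild type in unstressed cells, zuo1Δ footprints gave no call: edgeR called 0 of 39 and 4.82% of all genes (1.78% higher and 3.04% lower), 9 factors passed 0.05 before adjustment, and DESeq2 called 2, EFT2 and FUN12, both lower. The median log2 difference was -0.23 over the factors and 0.03 over all genes (0.01 and 0.27 with library size alone), 35 of 39 were below 0, and zuo1Δ values lay wholly below wild type for 27 and wholly above for 2, against 23.5% and 25.9% of all genes. EFT2 had 294 and 268 CPM in zuo1Δ cells, against 622 and 398 in wild type, a log2 difference of -0.86 ± 0.27 (adjusted p = 0.0983). FUN12 differed by -0.45 ± 0.13 (adjusted p = 0.0715) and had 815 and 861 CPM in zuo1Δ cells, against 1117 and 1169 in wild type. Without the doubted libraries, none of which is an unstressed one, 3 were called: EFT2 at -0.90, TEF4 at -0.43 and FUN12 at -0.49. YEF3 had 14315 and 14680 CPM in unstressed zuo1Δ cells, below its wild-type values of 17010 and 16953, without passing (log2 difference -0.23 ± 0.17, adjusted p = 0.511).

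With H2O2, footprints were higher in zuo1Δ cells for 6 factors and lower for 1, with 19% of all genes called (9.34% higher and 9.68% lower); zuo1Δ values lay wholly above wild type for 23 factors and wholly below for 5, against 32.1% and 33.5% of all genes. TIF3 had 705 and 697 CPM in zuo1Δ cells, against 414 and 422 in wild type, and CAF20 had 309 and 279, against 184 and 197. Each was higher in both zuo1Δ libraries, and the log2 differences were 0.75 ± 0.15 and 0.62 ± 0.14 (adjusted p = 0.00754 and 0.0126). TIF11 at 0.84 ± 0.19, YEF3 at 0.63 ± 0.17, SUI3 at 0.58 ± 0.17 and SUP45 at 0.45 ± 0.14 were the other higher genes (adjusted p = 0.0127, 0.0242, 0.0311 and 0.0449). HEF3 was lower, with 1.82 and 2.13 CPM in zuo1Δ cells against 6.86 and 6.97 in wild type (-1.83 ± 0.42, adjusted p = 0.0127). The call of 7 rests on few libraries: it was 1 without either wild-type replicate, 3 without zuo1Δ replicate 1 and 11 without zuo1Δ replicate 2. Leaving out the doubted libraries leaves 1 zuo1Δ H2O2 footprint library, so only effect sizes are given. TIF3 was then at 0.77, CAF20 at 0.58, YEF3 at 0.30, TIF11 at 0.63 and HEF3 at -1.66. ANB1 was at -2.68, which rests on 6 counts in that library.

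With heat edgeR called 0 of 39 between the genotypes and 6.48% of all genes (2.86% higher and 3.61% lower); 7 factors passed 0.05 before adjustment and DESeq2 called 1, ANB1. ANB1 had 4.71 and 4.64 CPM in zuo1Δ cells, against 19.4 and 11.9 in wild type, a log2 difference of -1.68 ± 0.56 (adjusted p = 0.0902). The groups did not overlap, and without the doubted libraries the adjusted p was 0.0200. Leaving out zuo1Δ heat replicate 1 also gave 1 call. The zuo1Δ values lay wholly above wild type for 15 factors and wholly below for 6, against 26.8% and 26.1% of all genes.

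**Figure D4:**
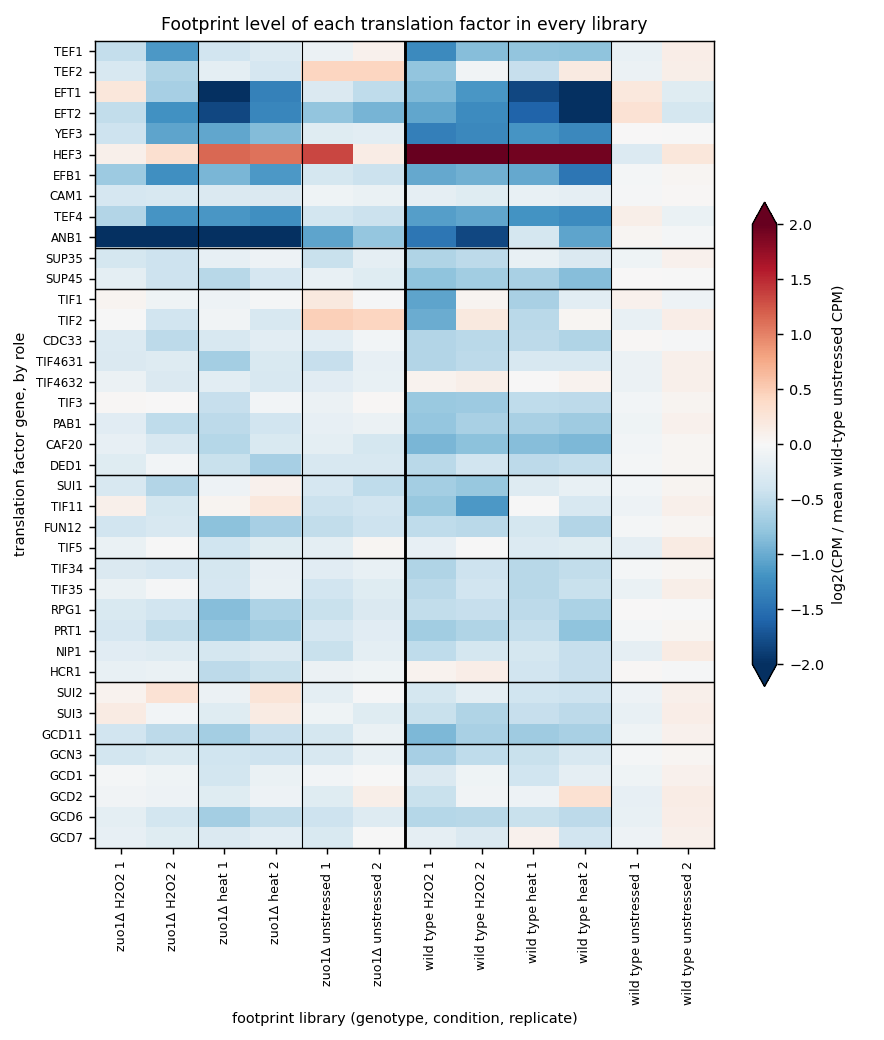
Footprint level of 39 factors in 12 libraries as log2 of CPM over the mean of unstressed wild-type cells, zuo1Δ libraries first and wild type after them, factors grouped by role. The eEF2 genes reach their lowest values in the heat columns of both genotypes, and ANB1 is below its unstressed wild-type mean in every zuo1Δ column.

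Averaged over the 3 conditions, 4 factors were higher and 2 lower in zuo1Δ footprints, against 25.6% of all genes called (12.5% higher and 13.1% lower). ANB1 was lower, with a log2 difference of -1.20 ± 0.29 (adjusted p = 0.0116). Its CPM was 5.59 and 1.16 with H2O2, 4.71 and 4.64 with heat and 11.9 and 14.3 unstressed in zuo1Δ cells, against 9.03 and 6.97, 19.4 and 11.9 and 25.4 and 23.9 in wild type. In each condition both zuo1Δ values were below both wild-type values, and ANB1 was called under all 19 settings tried, at -1.78 to -1.02. The eIF2 subunits SUI2 and SUI3 were higher, at 0.28 ± 0.09 and 0.30 ± 0.10 (adjusted p = 0.0442 and 0.0411), while the third subunit GCD11 was at 0.06 ± 0.08 (adjusted p = 0.622). SUI2 had 487 and 564 CPM with H2O2, 427 and 556 with heat and 402 and 456 unstressed in zuo1Δ cells, against 363 and 406, 349 and 349 and 431 and 494 in wild type, so that the genotypes were apart under stress and overlapped without it. SUI3 had 394 and 336 CPM with H2O2, 298 and 393 with heat and 332 and 296 unstressed in zuo1Δ cells, against 257 and 232, 254 and 244 and 317 and 384 in wild type, with the same pattern of overlap. TIF3, whose H2O2 values are given above, had 503 and 672 CPM with heat and 639 and 706 unstressed in zuo1Δ cells, against 489.7 and 483 and 669.5 and 722 in wild type. TIF3 at 0.32 ± 0.09 and CAF20 at 0.27 ± 0.08 were the other higher genes and TIF4632 at -0.27 ± 0.08 the other lower one (adjusted p = 0.0169, 0.0332 and 0.0302). HEF3, at -0.57 ± 0.32, did not pass (adjusted p = 0.218). The called differences apart from ANB1 were under 0.33 on the log2 scale. Without the doubted libraries ANB1, TIF3, SUI2 and TIF4632 were still called, and with scaling by library size alone 14 were higher and 1 lower. The count of 6 was 2 to 4 without any 1 of 10 libraries, 6 without zuo1Δ heat replicate 1 and 8 without zuo1Δ H2O2 replicate 2.

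In wild-type mRNA the median of the factors was below that of all genes in both stresses, with 2 calls for H2O2 and 0 for heat in the fit without a replicate block. With H2O2, 2 factors fell and none rose, against 2.66% of all genes called (1.44% higher and 1.22% lower); 20 factors passed 0.05 before adjustment and the median log2 change was -0.87, against -0.05 over all genes. With library size alone these medians turned positive, at 0.30 over the factors and 1.18 over all genes. ANB1 had 9.23 and 2.87 mRNA CPM with H2O2, against 59.7 and 35.7 unstressed, and TIF2 had 314 and 215, against 678 and 1399.5. Neither overlapped, and the changes were -2.96 ± 0.62 and -1.97 ± 0.48 (adjusted p = 0.0414 and 0.0477). No factor was called without the doubted libraries, without either H2O2 replicate or without unstressed replicate 2, and 1 without unstressed replicate 1. With heat edgeR called 0 of 39 and 0.69% of all genes (0.394% higher and 0.296% lower), 21 factors passed 0.05 before adjustment and DESeq2 called 18, all lower; leaving out unstressed replicate 1 gave 12. Same-numbered replicates deviated together in all 3 pairs of wild-type mRNA groups (correlations of 0.41, 0.31 and 0.66), and with the replicate number as a block edgeR called 10 factors with H2O2 and 7 with heat, all lower. YEF3 had 9918 and 5400.5 mRNA CPM with H2O2 and 8117 and 4899.8 with heat, against 28822 and 58923 unstressed, and its heat change was -2.75 ± 0.68 (adjusted p = 0.0677). The H2O2 values of YEF3 and its heat values were below both unstressed values, which themselves differed widely.

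Between the genotypes, all 10 elongation factors had less mRNA in zuo1Δ cells over the 3 conditions with TMM scaling, 4 of which (YEF3, EFB1, CAM1 and HEF3) turned direction with library size alone, at a median log2 difference of -1.79. Of the 39 factors 13 were lower and 5 higher, against 50.6% of all genes called (24.2% higher and 26.4% lower). TEF1 had 794 and 1499.5 mRNA CPM with H2O2, 1229.9 and 972 with heat and 2103 and 1670.1 unstressed in zuo1Δ cells, against 3629.9 and 1087, 6413 and 1905 and 16582 and 14965 in wild type. TEF2 had 1038 and 1447 with H2O2, 1596 and 933 with heat and 2143 and 1707 unstressed in zuo1Δ cells, against 5146 and 1483, 7734 and 2109 and 18545 and 17721 in wild type. Both eEF1A copies were lowest relative to wild type in the unstressed cells. EFT2 had 424 and 730.1 with H2O2, 690.1 and 505 with heat and 1689.6 and 863 unstressed in zuo1Δ cells, against 2854 and 1075, 4837 and 1600.1 and 12456 and 9023 in wild type. DED1 had 499 and 665 with H2O2, 873 and 408 with heat and 2220 and 718 unstressed in zuo1Δ cells, against 2413 and 1032, 10030 and 3549 and 6902 and 3899 in wild type. TEF1 overlapped between the genotypes under H2O2 and TEF2, EFT2 and DED1 in no condition. The summed eEF1A pair differed by -2.11 ± 0.44 log2 and the summed eEF2 pair by -2.22 ± 0.41 (adjusted p = 0.00248 and 0.00158). DED1 differed by -2.28 ± 0.43 and ANB1 by -3.35 ± 0.37 (adjusted p = 0.00176 and 0.000355).

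ANB1 mRNA was at 0.694 and 1.90 CPM with H2O2, 0.691 and 1.27 with heat and 7.52 and 3.98 unstressed in zuo1Δ cells, against 9.23 and 2.87, 32.7 and 18.3 and 59.7 and 35.7 in wild type, lower in every condition without overlap. TEF4 at -1.69, CAM1 at -1.15, YEF3 at -1.12, EFB1 at -1.06 and HEF3 at -0.68 were the further elongation genes, with FUN12 at -0.93 and TIF5 at -0.61 among initiation genes. Higher in zuo1Δ mRNA were the eIF4G genes TIF4632 at 1.17 ± 0.26 and TIF4631 at 0.85 ± 0.26, TIF11 at 1.04 ± 0.24, HCR1 at 0.83 ± 0.26 and TIF35 at 0.63 ± 0.21 (adjusted p = 0.00298, 0.0151, 0.00371, 0.0181 and 0.0238). TIF4632 had 61.7 and 31.3 CPM with H2O2, 34.6 and 65.6 with heat and 28.1 and 42.9 unstressed in zuo1Δ cells, against 21.8 and 39.7, 14.8 and 23.0 and 12.7 and 12.6 in wild type. The groups were apart with heat and unstressed and overlapped with H2O2.

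Of these 18 mRNA calls 16 were kept without the doubted libraries, and YEF3 at -1.30 ± 0.51 and TIF5 at -0.63 ± 0.28 no longer passed (adjusted p = 0.0616 and 0.0935). ANB1 was then at -3.51 ± 0.45, EFT2 at -2.65 ± 0.56 and DED1 at -2.57 ± 0.59.

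These mRNA directions depend on the scaling. The 50 most abundant genes took 19.1% to 33.1% of the counts in zuo1Δ mRNA libraries and 27.2% to 61.7% in wild-type ones, and scaling by library size alone moved the median of all genes by 1.25 on the log2 scale. It then gave 27 factors higher and 5 lower, and 6 of the 18 calls turned direction: YEF3 to 0.18, EFB1 to 0.26, CAM1 to 0.16, HEF3 to 0.59, FUN12 to 0.28 and TIF5 to 0.69. TEF1, TEF2, EFT2, ANB1 and DED1 were lower and called under both scalings. In unstressed cells alone edgeR called 0 of 39 and 0.276% of all genes in mRNA (0.0986% higher and 0.178% lower), 14 factors passed 0.05 before adjustment, and DESeq2 called 13, of which 12 were lower; 4 were called without zuo1Δ unstressed replicate 1. The unstressed replicates of the genotypes had a correlation of 0.80 by number, and with the replicate block 9 were called, 1 higher and 8 lower.

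Footprints relative to mRNA, tested as the genotype difference in footprints minus that in mRNA in 1 model of 24 libraries, were higher in zuo1Δ cells for 12 factors and lower for 4, against 36.2% of all genes called (20% higher and 16.2% lower). The summed eEF2 pair stood at 2.30 ± 0.42 and the summed eEF1A pair at 2.26 ± 0.43 log2 (adjusted p = 0.00190 and 0.00193), with DED1 at 2.26 ± 0.43, ANB1 at 2.13 ± 0.51, TEF4 at 1.64 ± 0.33, YEF3 at 1.35 ± 0.34, CAM1 at 1.03 ± 0.26 and EFB1 at 1.02 ± 0.28. FUN12 and TIF5 were the other higher genes, at 0.75 and 0.57. TIF4632 at -1.44 ± 0.29, HCR1 at -0.97 ± 0.29, TIF4631 at -0.91 ± 0.28 and TIF11 at -0.80 ± 0.27 were lower. For each of these genes the mRNA difference was larger in size than the footprint difference. The summed eEF1A and eEF2 footprints differed by 0.15 ± 0.12 and 0.07 ± 0.16 log2, without passing. Leaving out the doubted libraries, 16 were called, 15 of them the same: TIF5 at 0.60 ± 0.25 no longer passed (adjusted p = 0.0686) and TIF35 at -0.72 ± 0.21 did (adjusted p = 0.0185). With library size alone 5 were higher and 23 lower, and 4 of the 16 calls turned direction, namely EFB1, CAM1, FUN12 and TIF5. In wild-type cells neither stress gave a call on this measure: edgeR and DESeq2 each called 0 of 39 for H2O2 and for heat, 7 and 9 factors passed 0.05 before adjustment in edgeR, and 0% and 0.0986% of all genes were called (for heat 0.0592% higher and 0.0394% lower). Leaving out wild-type unstressed mRNA replicate 1 gave 6 for heat.

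**Figure D5:**
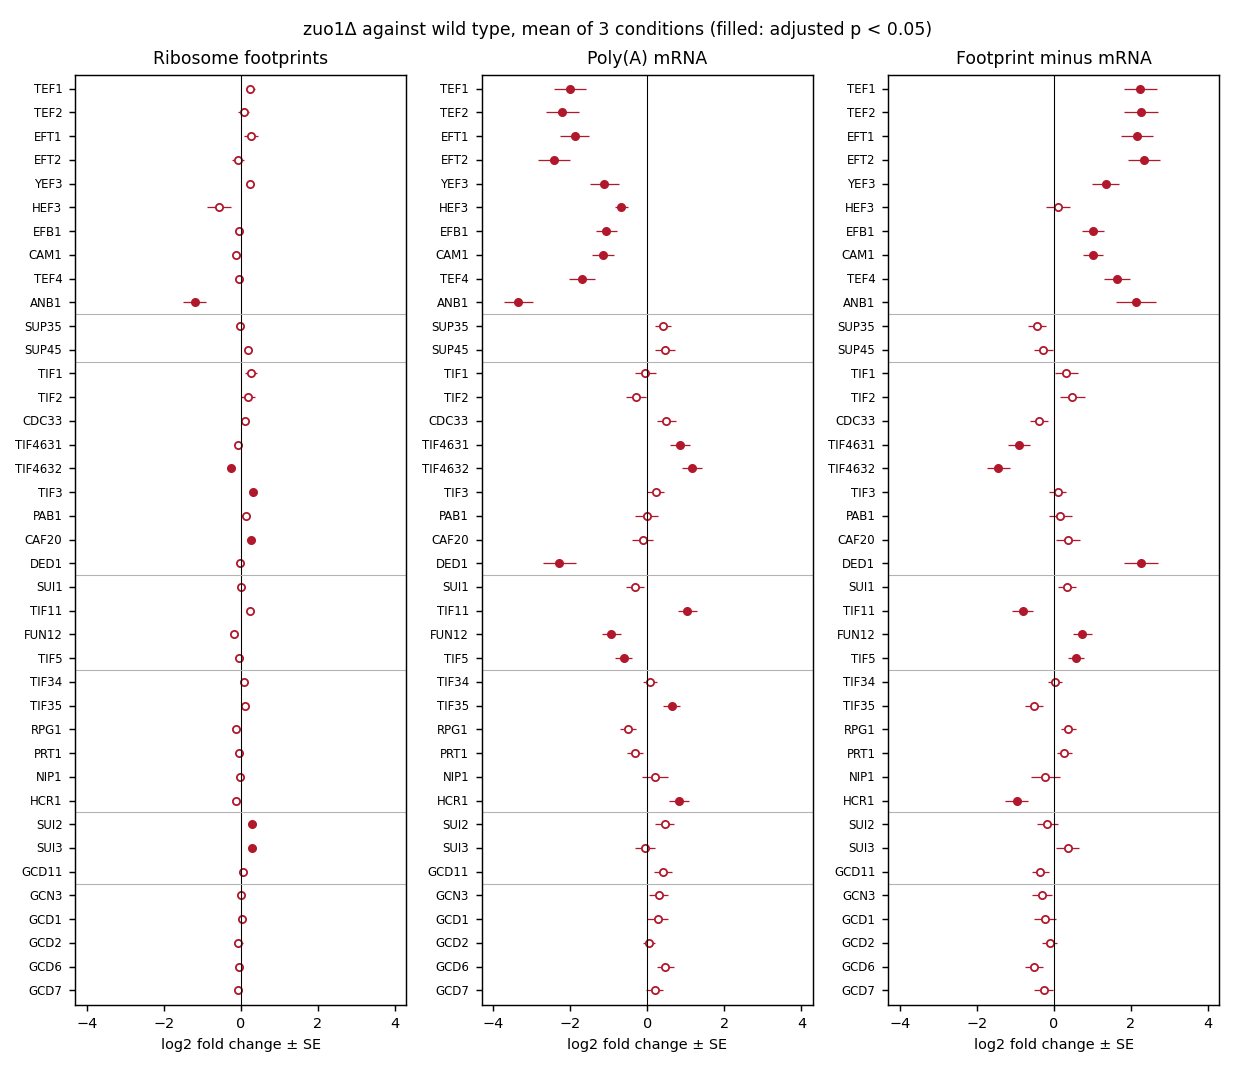
Log2 difference of zuo1Δ against wild type, mean of 3 conditions, for each factor in footprints, in mRNA and in footprints minus mRNA (panels in that order); bars are SE and filled points have an adjusted p under 0.05. Called footprint points other than ANB1, at -1.20, lie within 0.33 of 0, and HEF3, which was not called, is at -0.57, while the mRNA points of the 10 elongation factors, with TMM scaling, run from -3.35 to -0.68.

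Other genes of the translation machinery were set beside the factors. Of 22 cytosolic aminoacyl-tRNA synthetase genes, which charge tRNAs, 21 fell in wild-type footprints with H2O2 and 12 with heat, at medians of -0.63 and -0.57 log2, where 8.79% and 6.28% of all genes fell; the glycyl-tRNA synthetase gene GRS1 was at -0.89 ± 0.13 with H2O2. Of 135 ribosomal protein genes tested, 93 fell with H2O2 and 100 with heat, at medians of -0.72 and -0.84, and none rose. With library size alone 71 of them fell with H2O2 and 69 with heat, and 1 rose in each stress. On that scaling 12 and 7 synthetase genes fell, where 254 and 164 of all 5064 genes fell. Of 20 further cofactors, recycling and factor-modifying genes, 6 fell and 1 rose with H2O2 and 3 fell with heat; DYS1, which starts the hypusine modification of eIF5A, was at -0.73 ± 0.13 with heat. Of the 4 genes of the eIF2 kinase pathway, GCN1 and GCN20 fell with H2O2, GCN20 fell with heat, and the transcription factor gene GCN4 rose with heat by 2.89 ± 0.63. In zuo1Δ cells with heat 5 synthetase genes fell, and 49 ribosomal protein genes fell and 2 rose, where 6.26% of all genes fell. With library size alone 3 synthetase genes fell there, and 21 ribosomal protein genes fell and 4 rose, where 159 of all 5064 genes fell. Without the doubted libraries 11 synthetase genes fell, and 74 ribosomal protein genes fell and 2 rose, where 431 of all 5064 genes fell. In unstressed cells 35 ribosomal protein genes were lower and 2 higher in zuo1Δ footprints than in wild type, at a median of -0.40, and 6 synthetase genes were lower, at a median of -0.39, where 3.04% of all genes were lower. With library size alone 15 ribosomal protein genes and 0 synthetase genes were lower there. With H2O2, 19 ribosomal protein genes were higher and 3 lower in zuo1Δ footprints, and with heat 8 were higher and 1 lower. Over all genes the shares were 9.34% and 9.68% with H2O2 and 2.86% and 3.61% with heat. Over the 3 conditions 18 were higher and 24 lower, against 12.5% and 13.1% of all genes. That last count was 35 and 9 with library size alone and 16 and 44 without the doubted libraries. In mRNA over the 3 conditions 91 ribosomal protein genes were lower and 6 higher in zuo1Δ cells, at a median of -1.01 with TMM scaling, where 26.4% of all genes were lower. With library size alone 44 were higher and 25 lower, at a median of 0.30, against 1.27 over all genes, and without the doubted libraries 3 were higher and 82 lower. The 6 of 22 synthetase genes that were lower, at a median of -0.27, are near the share of all genes, and with library size alone 15 were higher and 0 lower. In footprints over the 3 conditions 8 synthetase genes were lower and 0 higher with TMM scaling. With library size alone 1 was lower and 4 higher.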

How the data were processed

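The members and all gene lists were chosen with earlier results of these data known. The authors deposited 1 table of read counts per gene for 24 libraries; per the submitters' processing notes cutadapt, Bowtie2, HISAT2, SAMtools and the R64 build were used, while their versions, the read counter and whether strand was used are not stated there. Of 5211 genes, those at 0 in all wild-type libraries (87) or all zuo1Δ libraries (54) were left out here, which leaves 5070. Names, positions and gene lengths come from RefSeq R64 (5198 identifiers matched); lengths include introns.

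In R 4.3.3, edgeR 4.0.16 (limma 3.58.1) fitted quasi-likelihood models to the deposited counts within each assay, with TMM factors and a filter at 10 counts (15 in total), and 1 model of all 24 libraries for footprints minus mRNA. SE is the log2 change over the root of F. Values in every library are given for up to 4 called members with the largest change per comparison and for the paralog pairs; other members are named at least once. Alternatives were library size or RLE scaling, no filter, DESeq2 1.42.0, the groups compared alone, a replicate block, leaving out each library, summing near-identical copies and leaving out 3 libraries doubted in an earlier analysis of these data. The fits were tested on simulated counts. Of 100 genes changed 2-fold, 57 were recovered in unstressed footprints between the genotypes and 60 in wild-type footprints with H2O2. Between the genotypes over the 3 conditions, 58 were recovered in mRNA and 41 in footprints minus mRNA. Of 100 genes changed 4-fold, 98, 94, 100 and 97 were recovered in the same order. A change of 2-fold or less can therefore go uncalled. Of the genes left unchanged, 7, 7, 15 and 10 were called in the same order. Gene span replaced the planned coding length, for which no table was used here. Recounts of the ribosomal protein and synthetase lists under library size scaling and without those 3 libraries were chosen after seeing the data.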

Additional observations from a re-analysis of the deposited data

Results flagged for a closer look

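The footprint response of TIF11, the eIF1A gene, to H2O2 differed between the genotypes by 1.24 on the log2 scale in the interaction test, with an edgeR adjusted p of 0.0499 that lies at the threshold. Its change was 0.29 in zuo1Δ cells and -0.95 in wild-type cells. In zuo1Δ cells TIF11 had 306 and 225 CPM with H2O2, against 213 and 221 CPM unstressed. In wild-type cells it had 169 and 129 CPM with H2O2, against 267 and 307 CPM unstressed. Without the 3 doubted libraries the difference was 1.07 (edgeR adjusted p = 0.0862).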

How the results depend on the processing

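Each count here is of the 39 factors called, with the reported count after "against". With DESeq2 the footprint counts were 2 against 0 and 1 against 0 between the genotypes unstressed and with heat, 3 against 0 and 8 against 4 for H2O2 and heat in zuo1Δ cells, and 10 against 1 and 2 against 0 for the H2O2 and heat interactions; the mRNA counts were 13 against 0 between the genotypes unstressed, 14 against 2 for wild-type H2O2 and 18 against 0 for wild-type heat. With library size alone the footprint counts between the genotypes were 14 against 7 with H2O2, 3 against 0 with heat and 15 against 6 over the 3 conditions, those of wild-type cells were 14 against 25 with H2O2 and 9 against 17 with heat, and that of the H2O2 interaction was 0 against 1. In mRNA it gave 17 against 0 unstressed, 32 against 18 over the 3 conditions, 11 against 2 for wild-type H2O2 and 1 against 0 for wild-type heat, and for footprints minus mRNA 28 against 16. It also moved the median footprint density of the factors in unstressed wild-type cells to 345 CPM per kb, against 409.

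Fitting only the groups compared gave 3 against 0 in unstressed footprints and 4 against 7 in H2O2 footprints between the genotypes, 0 against 1 for the H2O2 interaction, and 4 against 2 and 4 against 0 in wild-type mRNA with H2O2 and heat. For values averaged over the 3 conditions this fit holds the same libraries and gave no separate value. The H2O2 interaction was 2 against 1 with RLE factors and 0 with no filter, and wild-type H2O2 mRNA was 1 against 2 with near-identical copies summed. Without the 3 doubted libraries the footprint counts were 3 against 0, 3 against 7 and 1 against 0 between the genotypes unstressed, with H2O2 and with heat, 5 against 0 and 8 against 4 in zuo1Δ cells with H2O2 and heat, and 0 against 1 and 1 against 0 for the interactions, and wild-type H2O2 mRNA was 0 against 2. Library size alone also moved the median of all genes, so medians over the factors are set beside it: in footprints 0.01 and 0.27 unstressed and 0.17 and 0.19 over the 3 conditions between the genotypes, and 0.09 and 0.14 in zuo1Δ cells with H2O2. In mRNA they were 1.27 and 1.27 over the 3 conditions between the genotypes, and unstressed the factors were at 0.81, where the median of all genes had moved by 1.51. In wild-type cells with H2O2 they were 0.30 and 1.18. For footprints minus mRNA they were -0.94 and -1.06 over the 3 conditions and -0.56 and -0.82 in wild-type cells with H2O2. Each of these 8 medians over the factors had the other sign with TMM. Those over the 3 conditions in footprints and mRNA, at -0.01 and -0.06 with TMM, also crossed 0 on leaving out single libraries. So did the median for footprints minus mRNA in wild-type cells with H2O2, which ran from -0.05 to 0.63.

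Same-numbered samples deviated together, with a correlation over 0.1, in 6 of 15 footprint pairs, 10 of 15 mRNA pairs and 9 of 36 pairs across the assays, so over all groups the numbers were not taken to pair the samples; the 3 pairs of wild-type mRNA groups were all over 0.1. With a replicate block 1 factor was called against 0 in heat footprints between the genotypes, 4 against 1 for the H2O2 interaction, 9 against 0 in unstressed mRNA between the genotypes, 10 against 2 for wild-type H2O2 mRNA and 7 against 0 for wild-type heat mRNA.

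Leaving out 1 library at a time, footprint counts between the genotypes ran from 0 to 0 unstressed, 1 to 11 with H2O2, 0 to 1 with heat and 2 to 8 over the 3 conditions. They ran from 5 to 21 and 5 to 10 for wild-type H2O2 and heat, 0 to 5 and 0 to 2 for zuo1Δ H2O2 and heat, and 0 to 12 and 0 to 0 for the interactions. In mRNA they ran from 0 to 4 unstressed and 14 to 21 over the 3 conditions between the genotypes, 0 to 1 for wild-type H2O2 and 0 to 12 for wild-type heat. For footprints minus mRNA they ran from 14 to 18 over the 3 conditions, 0 to 0 for H2O2 and 0 to 6 for heat.

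Over all genes, library size alone gave 3022 calls in unstressed mRNA between the genotypes against 14, 1581 in wild-type H2O2 mRNA against 135, 3323 for footprints minus mRNA against 1836, 488 in unstressed footprints against 244 and 819 in wild-type heat footprints against 497. DESeq2 gave 610, 596 and 646 in those mRNA comparisons and wild-type heat mRNA (against 14, 135 and 35), and 324 and 155 for the interactions (against 69 and 52). Without the doubted libraries 415 were called in H2O2 footprints between the genotypes against 963, and 184 in zuo1Δ H2O2 footprints against 0. Footprint libraries at the low end of depth limit the weakly read factors, HEF3 and ANB1.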
